A study of Homo sapiens with 120 samples.

Results

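Fibroblast growth factor (FGF) signalling and its readout through the kinase ERK were followed in 37 of the 62703 genes of the deposited table. The genes were chosen by name. They are 22 FGF genes, the 4 receptors FGFR1 to FGFR4, 8 feedback inhibitors (SPRY1, SPRY2, SPRY4, SPRED1, SPRED2, DUSP4, DUSP5 and DUSP6) and 3 transcription factors (ETV1, ETV4 and ETV5). The study asked how the long noncoding RNA lncPRESS1 acts in H1 cells, a long-established line of human embryonic stem cells, as they leave pluripotency. All 120 RNA-seq libraries are from H1 cells, and the labels describe growth of the stem cells on a basement membrane matrix in mTeSR Plus medium.

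In the differentiation arm, unedited cells (WT), cells with lncPRESS1 knocked out (KO) and cells of the line labelled ΔATG were collected at day 0 and on days 1 to 5 of 3 protocols. These were BMP4 towards mesoderm, SMAD inhibition (SMADi) towards neuroectoderm, and a commercial definitive endoderm kit (Endo). In the overexpression arm, H1 cells labelled with a vector, lncPRESS1, lncPRESS1DATG or lncSIRP were collected at stages named early, middle and late. Each of the 60 groups holds 2 libraries, a and b, and paired values below stand in that order. The sources used here do not say that a and b were separate cultures, so p-values measure the spread between these libraries, which may be technical. That spread is estimated over all groups of an arm, not from the groups compared alone. Not given in the sources used here are the exact edits, the number of clones per line, the BMP4 dose, the nature of lncSIRP, the promoter of the vectors and the days of the 3 stages. The KO and ΔATG lines were compared with the same WT libraries, and the constructs with the same vector libraries.

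Secreted FGFs bind receptor tyrosine kinases at the cell surface and, through RAS, RAF and MEK, activate ERK. Active ERK switches on ETS-family factors such as ETV4 and ETV5, in part by relieving repression by CIC, and it switches on its own inhibitors: Sprouty (SPRY) and SPRED proteins act on the route to RAS and RAF, and DUSP4, DUSP5 and DUSP6 remove phosphate from ERK. The RNA of these targets is therefore often used as a readout of the pathway. Human embryonic stem cells depend on FGF2 in their medium, while FGF4, FGF8 and FGF17 are ligands of the gastrulating embryo and, for FGF8 and FGF17, of the early brain. FGF11 to FGF14 stay inside the cell and bind sodium channels, so the name of the family covers genes that are not receptor ligands.

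RefSeq promoter windows, 250 bases upstream of each annotated start (GRCh38.p14), were available for 25 of the 37 genes and were searched on both strands for the ETS core CCGGAAG and the CIC octamers TGAATGAA and TGAATGGA. The octamer was found in the window of 1 member, ETV1, where its first base lies 125 bases before the start. The windows of SPRY1 and SPRY2 printed with it hold none of these letters. These 3 genes are among those called lower in KO than in WT cells at day 0. Others of that group with windows, such as SPRY4 and DUSP6, are not printed. For each printed gene the outermost window is shown. None of the windows overlaps an annotated exon. Capitals mark the octamer, at ETV1 (chr7:13991426-13991675, minus strand), and there are none at SPRY1 (chr4:123396545-123396794, plus strand) or SPRY2 (chr13:80341127-80341376, minus strand).
ETV1: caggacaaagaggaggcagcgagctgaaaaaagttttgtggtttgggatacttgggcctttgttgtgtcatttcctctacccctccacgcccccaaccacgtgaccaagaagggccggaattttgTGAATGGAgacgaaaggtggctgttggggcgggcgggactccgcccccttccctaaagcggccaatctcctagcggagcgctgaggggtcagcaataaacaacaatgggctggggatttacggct
SPRY1: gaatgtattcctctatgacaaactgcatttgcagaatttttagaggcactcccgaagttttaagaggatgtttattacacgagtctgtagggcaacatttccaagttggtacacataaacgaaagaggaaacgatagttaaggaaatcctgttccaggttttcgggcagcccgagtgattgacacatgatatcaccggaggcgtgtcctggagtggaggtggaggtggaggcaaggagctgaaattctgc
SPRY2: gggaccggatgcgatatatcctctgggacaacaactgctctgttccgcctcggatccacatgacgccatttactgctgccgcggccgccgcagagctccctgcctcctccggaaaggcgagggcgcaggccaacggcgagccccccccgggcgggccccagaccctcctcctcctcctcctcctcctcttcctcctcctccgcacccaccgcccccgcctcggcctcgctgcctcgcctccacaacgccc
Of 35116 windows of the same length, 2.19% held a CIC octamer and 8.52% the ETS core. Of 50 member windows, 1 held a CIC octamer, that of ETV1 above. The ETS core was found in 1 of the 50, at a further start of SPRY1 that is not printed. A match describes these letters and is not evidence of binding.

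Library totals lay between 38298440 and 71220396 counts in the differentiation arm and between 40113672 and 65466258 in the overexpression arm, and 25821 and 23300 genes passed the filter on low counts. Of the members, 36 passed in the differentiation arm, all but FGF6, and 33 in the overexpression arm, all but FGF3, FGF5, FGF6 and FGF7. The highest level of FGF6 in any library was 0.0985 CPM (counts scaled to a common library total), and FGF3 and FGF5 stayed at or below 0.547 and 0.294 CPM. The lncPRESS1 gene itself read 21.4 and 40.6 CPM in WT, 13.2 and 5.6 in KO and 53.1 and 35.2 in ΔATG cells at day 0, so KO cells still held its RNA there. In WT cells from day 0 to day 5, 8 of 8 lateral mesoderm genes rose in BMP4, 9 of 10 neuroectoderm genes in SMADi and 9 of 10 definitive endoderm genes in Endo. BMP4 also raised 9 of 10 definitive endoderm, 8 of 9 tested amnion or trophoblast, 7 of 8 primitive streak and 7 of 8 fibroblast genes. In Endo 5 lateral mesoderm genes were higher and 0 lower, and 4 and 1 primitive streak genes. There too, 4 amnion or trophoblast genes were higher and 3 lower, and 3 and 5 neuroectoderm genes. In SMADi 4 definitive endoderm genes were higher and 2 lower, and 3 and 1 primitive streak genes. In BMP4 4 neuroectoderm genes were higher and 3 lower. Some single markers of other fates were at 0 CPM at day 5. SOX1 read 0 in both WT BMP4 and both WT Endo libraries, as did GATA4 and FOXA2 in both WT SMADi libraries. The 10 pluripotency genes still summed to 4540 and 4100 CPM in WT cells on BMP4 day 5, against 7830 and 7180 at day 0. In such bulk libraries, fewer cells of a type and less RNA per cell cannot be told apart.

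In WT cells Endo raised FGF17 by far the most, with a burst of FGF4 and FGF19 on day 1 and FGF8 throughout. SMADi raised FGF8, FGF17 and FGF9, and BMP4 raised FGF17 and FGF10 (edgeR's quasi-likelihood test with Benjamini-Hochberg adjustment, here and below; a gene is called at an adjusted p under 0.05). Differences are given as log2 fold changes with their standard errors. From day 0 to day 5, 21 of 36 members were called in BMP4 (11 higher, 10 lower), where 45.0% of all genes were (22.9% higher, 22.2% lower). In SMADi 28 were called (10 higher, 18 lower) against 53.5% of all genes (26.8% and 26.7%), and in Endo 26 (13 higher, 13 lower) against 63.4% (31.2% and 32.2%). The median difference over the members was 0.03 in BMP4, -0.86 in SMADi and -0.04 in Endo, and over all genes 0.00, 0.00 and -0.05.

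FGF17 (chr8:22042398-22048809, plus strand, GRCh38) encodes a ligand of the FGF8 subfamily. At day 0 its WT libraries read 0.203 and 0.509 CPM. In Endo they read 147 and 114 CPM on day 1, 2040 and 1960 on day 2, 3120 and 3110 on day 3, 3020 and 3050 on day 4, and 1930 and 1970 on day 5. The level was thus low only before induction, and no later Endo library came near the day 0 range. In BMP4 the same gene read 0.739 and 1.44, 58.8 and 70.2, 20.7 and 23.2, 10 and 12.9, and 9.34 and 15.8 CPM on days 1 to 5, with its high point on day 2. In SMADi it read 0.806 and 1.27, 3.41 and 4.09, 17.2 and 16, 16.1 and 14.6, and 6.93 and 6.06 CPM, highest on days 3 and 4. By day 5 FGF17 had risen by 12.42 ± 0.27 in Endo (adjusted p = 6.16e-42), 5.12 ± 0.30 in BMP4 (2.93e-21) and 4.19 ± 0.33 in SMADi (2.48e-16). Day 5 Endo cells exceeded day 5 BMP4 cells by 7.30 ± 0.19 (1.11e-37) and day 5 SMADi cells by 8.23 ± 0.20 (3.31e-39).

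FGF4, a ligand of the epiblast and primitive streak, lies with FGF19 and FGF3 on chromosome 11 within 120.8 kb, all on the minus strand (FGF19 at 69698232-69704642, FGF4 at 69771016-69775403, FGF3 at 69809969-69819024). FGF4 read 4.08 and 3.04 CPM at day 0 and 286 and 336 on Endo day 1, then 13.1 and 14.4 on day 2 and 1.68 and 2.55 on day 3. FGF19, which signals as a hormone in the adult and in the embryo as a local ligand, peaked on the same day, at 99.3 and 104 CPM against 11 and 18.2 at day 0. By day 5 both were below day 0 in Endo, FGF4 at -4.25 ± 0.43 (5.08e-13) and FGF19 at -5.25 ± 0.26 (4.17e-25). FGF3, the outer neighbour, stayed under 1 CPM in every library.

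FGF8, a ligand of the streak and of brain organising centres, read 0.83 and 0.825 CPM at day 0, 54.1 and 53.5 on Endo day 5 and 22.4 and 24 on SMADi day 5. It rose by 6.02 ± 0.18 in Endo (7.58e-35) and 4.81 ± 0.19 in SMADi (5.52e-29). In BMP4 it was highest on day 1, at 8.69 and 10.8 CPM, and was not called on day 5. FGF2, the ligand that sustains the stem cell state, fell in Endo from 146 and 112 CPM at day 0 to 2.54 and 3.21 on day 5, a difference of -5.49 ± 0.27 (4.80e-25). Its smaller differences in BMP4 (-0.72) and SMADi (-0.68) lost the call without WT day 0 library a, at -0.53 (adjusted p = 0.0695) and -0.51 (0.0684). FGF10, a mesenchymal ligand, rose by 4.64 ± 0.33 in BMP4 (6.03e-19), to 14.6 and 11.1 CPM on day 5. FGF9 rose in SMADi by 3.43 ± 0.65 (8.72e-06), to 2.67 and 1.68 CPM. Of the other ligands FGF18, of the FGF8 subfamily, and FGF22, a neuronal ligand, were lower on day 5 of all 3 protocols, FGF22 by -1.75 ± 0.26 in BMP4, -1.82 ± 0.28 in SMADi and -4.11 ± 0.40 in Endo. The BMP4 call of FGF18 (-0.86) was lost without WT day 0 library b (-0.43, 0.37). FGF16, of the FGF9 subfamily, rose in Endo by 1.85 ± 0.29 (1.75e-07). Of the intracellular genes FGF12 and FGF13 were lower in SMADi (-1.26 and -1.17) and higher in Endo (0.79 and 0.60), FGF11 was lower in both (-1.13 and -2.03), and FGF14 was called in none. FGF21, a metabolic hormone, was called lower on day 5 of all 3 protocols, but its WT day 0 libraries read 0.474 and 4 CPM: without library b its difference of -5.45 in BMP4 became -3.24, that of -4.51 in SMADi -2.31 and that of -4.63 in Endo -2.43.

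**Figure D1:**
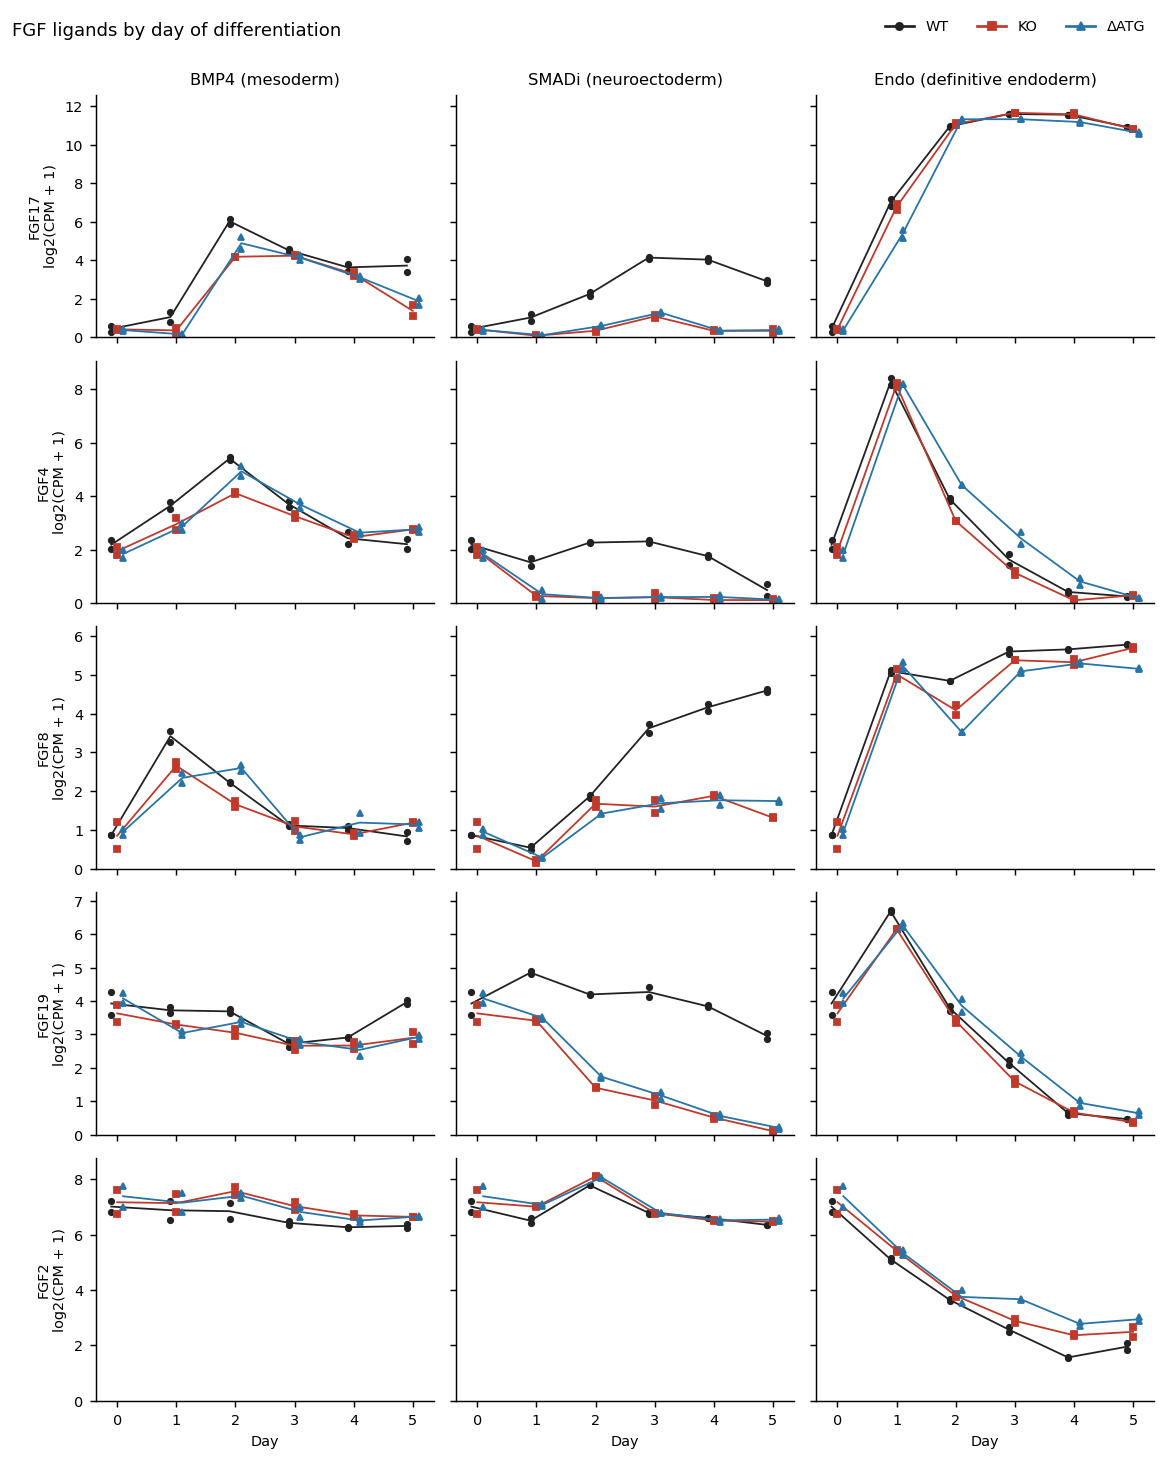
Levels of FGF17, FGF4, FGF8, FGF19 and FGF2 as log2(CPM + 1) against day, with the 3 protocols side by side; points are libraries and lines join the means of 2 libraries for WT, KO and ΔATG. WT FGF17 reaches 3120 CPM in Endo, FGF4 and FGF19 peak on Endo day 1, and on SMADi day 3 the KO and ΔATG points lie below WT for FGF17, FGF4, FGF8 and FGF19.

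The receptors changed over a smaller range. FGFR1, a receptor that binds FGF2 and FGF4, read 487 and 520 CPM at day 0, 692 and 633 on BMP4 day 5, 839 and 778 on SMADi day 5 and 217 and 201 on Endo day 5. It rose by 0.39 ± 0.08 in BMP4 (4.15e-05) and 0.68 in SMADi, and fell by 1.27 ± 0.08 in Endo (2.75e-20). FGFR3 rose in all 3 protocols, by 2.58 ± 0.13 in BMP4 (2.68e-24), 2.73 ± 0.13 in SMADi (1.42e-25) and 2.41 ± 0.13 in Endo (8.48e-24). It went from 19.9 and 16.7 CPM to 117 and 103, 119 and 124, and 95.9 and 98.8. FGFR4 fell by 0.77 ± 0.09 in BMP4 (1.49e-10) and 0.91 in SMADi from 103 and 78.1 CPM, and was not called in Endo. FGFR2 (121 and 126 CPM at day 0) was higher in SMADi by 0.53, lower in BMP4 (-0.32) and not called in Endo.

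On SMADi day 1 all 8 rose in WT cells, by a median of 1.42 beside -0.05 over all genes, among 25 members called (44.9% of all genes, 22.4% higher). SPRY4 then read 395 and 385 CPM and DUSP6 241 and 262, from 110 and 159 and from 50 and 45 at day 0. From day 2 both were low: SPRY4 read 18.4 and 18.2 CPM on day 2 and 4.42 and 4.67 on day 5, and DUSP6 (chr12:89347232-89353271, minus strand) 4.02 and 2.99 and then 4 and 7.87. The SMADi means of 7 inhibitors were highest on day 1, as were those of all 3 ETV factors. The exception was DUSP4, highest on day 4 at 75.9 and 80.2 CPM. By day 5 the differences from day 0 were -4.89 ± 0.22 for SPRY4 (4.68e-26), -3.62 ± 0.27 for DUSP5 (5.96e-17), -2.99 ± 0.34 for DUSP6 (5.54e-11) and -2.43 ± 0.13 for ETV4 (4.11e-23), while DUSP4 had risen by 2.23 ± 0.15 (5.35e-19).

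On Endo day 2 all 8 inhibitors were again higher than at day 0, with a median of 1.41 beside -0.01 over all genes, among 26 members called (56.7% of all genes). SPRY4 was at its highest Endo level that day, at 503 and 502 CPM, above its SMADi day 1 level. The days of the highest Endo mean were day 1 for DUSP6, day 2 for SPRY1, SPRY4 and DUSP5, day 4 for SPRY2 and SPRED1, and day 5 for SPRED2 and DUSP4. DUSP4, which acts on ERK in the nucleus, read 11.8 and 10.7 CPM at day 0, 14.3 and 15.5 on day 1, 493 and 496 on day 2 and 1160 and 1070 on day 5. That rise of 6.63 ± 0.17 (4.36e-38) came as DUSP6, which acts on ERK in the cytoplasm, went from 85.8 and 112 CPM on day 1 to 21.2 and 21.6 on day 5. On day 5 DUSP6 differed from day 0 by -1.15 ± 0.30 (0.000696). SPRED2 rose by 2.52 ± 0.15 (4.96e-22), ETV1 fell by 3.31 ± 0.25 (2.90e-17) and ETV4 fell by 1.24. SPRY4 fell by 0.69, a call lost without WT day 0 library b (-0.43, adjusted p = 0.0678).

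In BMP4 the means of 5 inhibitors were highest on day 5, those of SPRY1 and SPRY4 on day 1 and that of SPRED1 on day 2. DUSP6 read 44.1 and 51 CPM on day 1, 30.1 and 33.6 on day 2, 19.1 and 16.9 on day 3, 74 and 57.2 on day 4, and 174 and 255 on day 5. The level thus went down to day 3 and up again, with the highest pair on day 5. By day 5 DUSP6 had risen by 2.17 ± 0.29 (6.83e-09), SPRY2 by 1.72 ± 0.17 (1.45e-12) and DUSP4 by 1.69 ± 0.15 (3.32e-14). Between protocols on day 5, DUSP6 was 5.17 ± 0.35 higher in BMP4 than in SMADi (7.08e-19) and Endo differed from BMP4 by -3.32 ± 0.31. Over these day 5 contrasts, 27 members were called for Endo against BMP4 (12 higher, 15 lower), beside 58.3% of all genes (28.7% and 29.6%). For Endo against SMADi 29 were called (18 higher, 11 lower), beside 59.5% (28.6% and 30.9%), and for BMP4 against SMADi 26 (17 higher, 9 lower), beside 53.9% (27.2% and 26.7%).

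**Figure D2:**
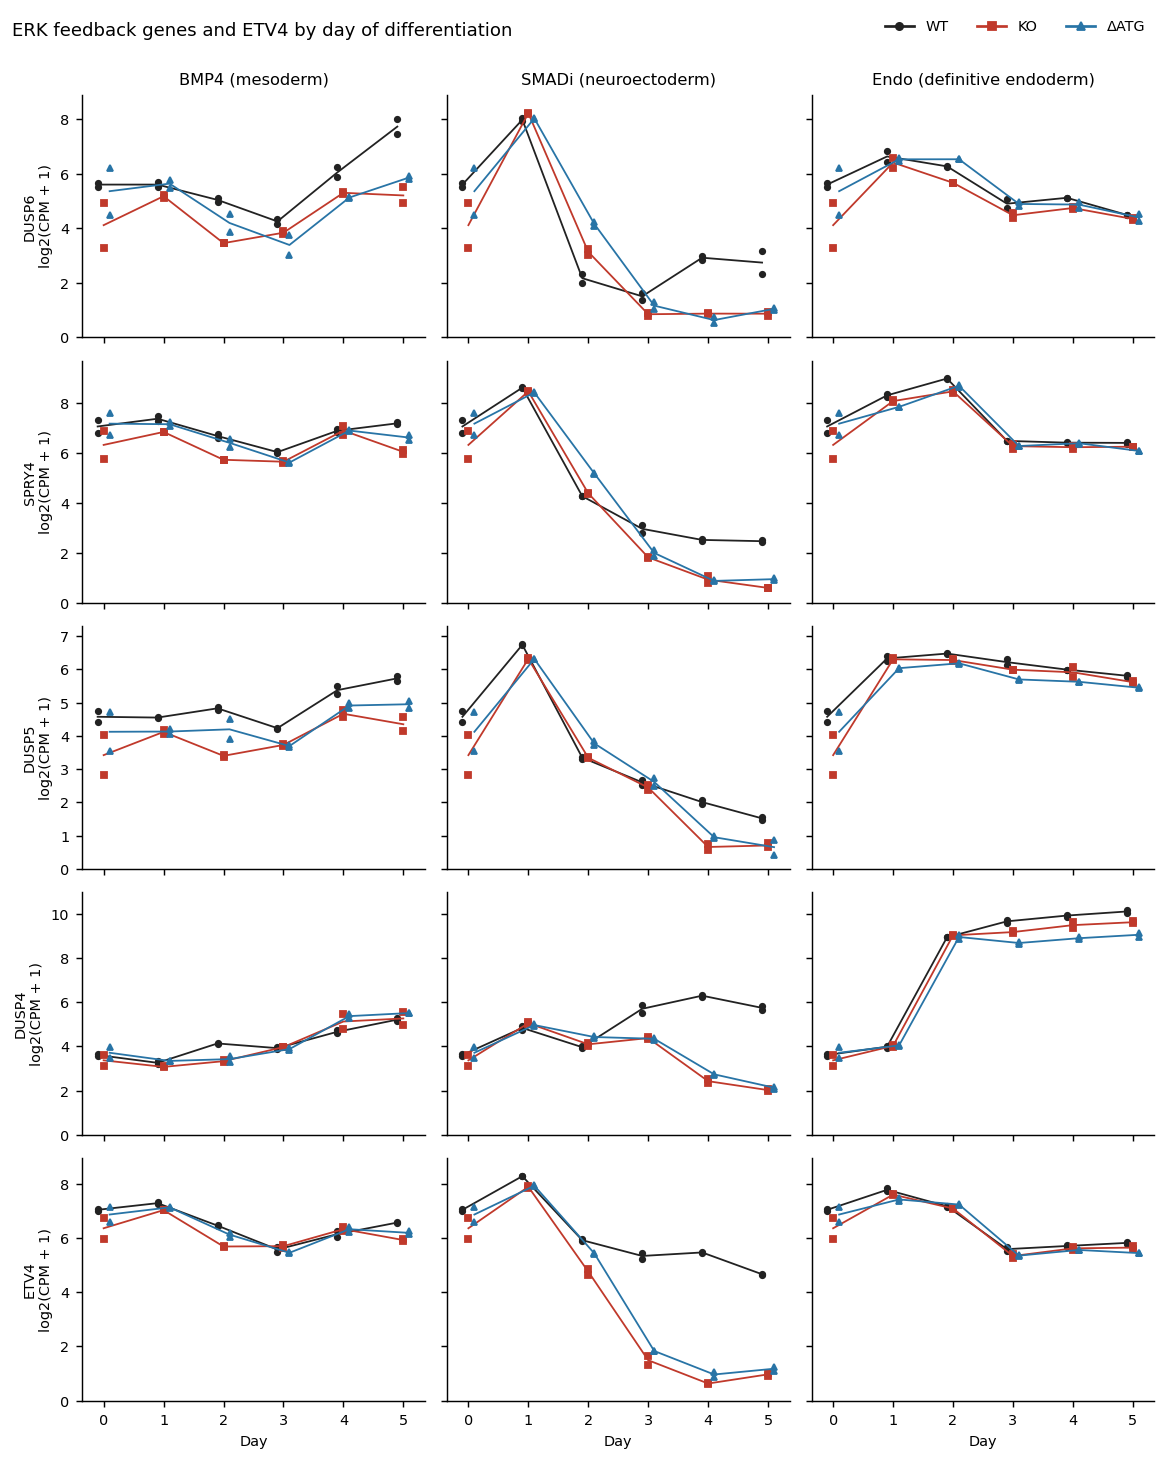
Levels of DUSP6, SPRY4, DUSP5, DUSP4 and ETV4 as log2(CPM + 1) against day in the 3 protocols; points are libraries and lines join the means of 2 libraries for WT, KO and ΔATG. Within SMADi, WT DUSP6 and SPRY4 are highest on day 1, at 241 and 262 and at 395 and 385 CPM; in Endo SPRY4 reaches 503 and 502 CPM on day 2, DUSP4 climbs in Endo to 1160 and 1070 CPM, and ETV4 lies at 2.56 CPM or below in both edited lines from SMADi day 3.

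At day 0, before any protocol, feedback genes were lower in KO cells while no ligand was called. In KO against WT, 9 of 36 members were called, all lower: 5 of 8 inhibitors, 2 of 3 ETV factors, 2 of 4 receptors and 0 of 21 ligands. Of all genes 4.89% were called, 1.86% higher and 3.03% lower. Of the ligands 3 had an unadjusted p under 0.05, and the DESeq2 test called 1 of 21. The median was -0.62 over the inhibitors, -0.17 over all members and 0.00 over all genes. DUSP6 read 50 and 45 CPM in WT, 29.5 and 8.76 in KO and 73.5 and 21.5 in ΔATG cells. DUSP5, an inducible ERK phosphatase of the nucleus, read 25.8 and 20.2, 15.3 and 6.04, and 25.2 and 10.6 CPM. ETV4 (chr17:43527844-43579620, minus strand) read 133 and 128, 106 and 61.9, and 141 and 94.7 CPM. In all 3 genes both KO libraries lay below both WT libraries. Library b lay below library a in WT, KO and ΔATG cells, by the least in WT.

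The differences of KO from WT at day 0 were -1.29 ± 0.30 for DUSP6 (adjusted p = 0.00457), -1.09 ± 0.21 for DUSP5 (0.000832) and -0.63 ± 0.12 for ETV4 (0.00054). The others called were ETV1 (-0.68), SPRY4 (-0.65), SPRY2 (-0.63), SPRY1 (-0.62), FGFR3 (-0.58) and FGFR4 (-0.33). These calls rest on KO library b: without it 0 members were called by edgeR's test (12 had an unadjusted p under 0.05) and DUSP6 was at -0.69 (0.375), DUSP5 at -0.59 (0.198), ETV4 at -0.30 (0.251) and SPRY4 at -0.19 (0.762). Without KO library a DUSP6 was at -2.43 and SPRY4 at -1.35. Without WT library a DUSP6 (-1.22) and DUSP5 (-0.91) were no longer called, and without WT library b SPRY4 was at -0.35. The number of calls over all genes also moved widely with the library left out. An edgeR fit of the WT and KO day 0 libraries alone called 0 members, with 7 at an unadjusted p under 0.05. That fit called only 3 of all genes, against 1263 in the main fit. The DESeq2 test over all libraries called 10 members and 1261 of all genes. Of the marker lists, 3 of 10 neuroectoderm and 2 of 10 pluripotency genes were lower in KO at day 0, and 2 of 9 amnion or trophoblast genes were higher, with sums of 48.6 and 53.9 CPM against 32.6 and 38.5 in WT. Their part in the feedback gene differences was not tested.

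In ΔATG against WT at day 0, 2 members were called (5.50% of all genes, 2.30% higher and 3.20% lower): FGFR4 (-0.32 ± 0.09, 0.0161) and FGF21 (1.19 ± 0.29, 0.00487). FGF21 read 5.12 and 4.96 CPM in ΔATG cells, and without WT library a its difference was 0.32 (0.757), while that of FGFR4 was -0.12. With the replicate letter as a block, which the day 0 libraries warrant, 5 were called, 2 of them inhibitors, and FGF2 was among them at 0.37 (0.00087). The block also raised the calls over all genes, from 1420 to 2804 of 25821. Without ΔATG library a the differences from WT were -1.14 for DUSP6 and -0.46 for ETV4. Without ΔATG library b no inhibitor or ETV factor was called. Here too the number of calls over all genes moved widely with the library left out. FGF2 read 146 and 112 CPM in WT, 192 and 106 in KO and 215 and 128 in ΔATG cells. Between the edited lines 5 members were higher in ΔATG than in KO cells (4.07% of all genes, 2.15% higher and 1.91% lower), DUSP6 by 1.30 ± 0.30 (0.00493), FGF21 by 1.29 ± 0.29, SPRY4 by 0.81 ± 0.17, DUSP5 by 0.73 ± 0.22 and ETV4 by 0.49 ± 0.12. The block raised this count to 11, beside a rise from 1050 to 2661 over all genes. Without ΔATG library a the differences from KO were 0.15 for DUSP6, 0.30 for SPRY4, 0.17 for ETV4 and -0.04 for DUSP5.

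During BMP4 treatment both edited lines had less FGF17, FGF10 and DUSP6 than WT and more FGFR1 and FGFR2. Averaged over days 1 to 5, 24 members were called in KO (7 higher, 17 lower), beside 28.7% of all genes (13.3% and 15.4%), with a median of -0.39 over the members and 0.00 over all genes. In ΔATG 20 were called (6 higher, 14 lower), beside 17.0% of all genes (8.19% and 8.78%), with medians of -0.15 and 0.00. Among the inhibitors 6 of 8 were lower in KO and 5 of 8 in ΔATG, and none was higher. Of the 4 receptors, 3 were higher in each line. With the replicate block KO kept a count of 24 and ΔATG had 23, beside rises from 7404 to 9024 and from 4381 to 6221 over all genes.

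FGF17 on BMP4 day 2 read 58.8 and 70.2 CPM in WT, 17 and 17.2 in KO and 35.4 and 23 in ΔATG cells. On day 3 it read 20.7 and 23.2, 17.4 and 18.3, and 15 and 18.1 CPM, and on day 5 9.34 and 15.8, 1.11 and 2.14, and 3.13 and 2.23 CPM. The edited lines therefore lay below WT on days 2 and 5 without overlap and nearer to it on day 3. The KO difference was -1.91 ± 0.16 on day 2 (7.95e-14), -0.30 on day 3 (0.298), -0.39 on day 4 (0.15) and -2.96 ± 0.23 on day 5 (9.80e-16). In ΔATG cells it was -1.14 ± 0.15 on day 2 (6.28e-07) and -2.19 ± 0.21 on day 5 (1.02e-11), and over days 1 to 5 it averaged -1.53 ± 0.14 (4.22e-13), beside -1.49 ± 0.12 in KO (6.34e-15). The differences varied among the days by the joint test in both lines, at adjusted p = 1.02e-10 in KO and 1.20e-05 in ΔATG.

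DUSP6 on BMP4 day 5 read 174 and 255 CPM in WT, 29 and 44 in KO and 60 and 54.3 in ΔATG cells. Every edited library was below every WT library. The differences were -2.56 ± 0.29 in KO (5.05e-10) and -1.91 ± 0.29 in ΔATG (1.26e-06), and -1.18 ± 0.13 (2.15e-10) and -0.91 ± 0.13 (3.35e-07) over days 1 to 5. SPRY2, an inhibitor induced by ERK, read 68.8 and 69.1 CPM in WT, 25.5 and 29.6 in KO and 44.4 and 39 in ΔATG cells on day 5. Its mean difference was -0.86 ± 0.08 in KO (4.39e-14) and -0.35 in ΔATG, and ΔATG exceeded KO by 0.51 ± 0.08 (9.48e-07). FGF10 read 14.6 and 11.1, 1.59 and 2.8, and 11.1 and 7.48 CPM on day 5, and averaged -1.15 ± 0.16 in KO (1.79e-08) and -0.80 ± 0.16 in ΔATG (9.49e-05). ETV4 and ETV5 were lower in both lines, by means of -0.28 and -0.71 in KO and -0.16 and -0.31 in ΔATG. FGF3, listed at under 1 CPM, was called lower, at -2.36 ± 0.58 in KO and -1.24 ± 0.45 in ΔATG, and with the block its ΔATG call was lost (-1.26, 0.0595).

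FGF4 in BMP4 changed sides with the day. On day 2 it read 43.4 and 39.2 CPM in WT, 16.6 and 15.8 in KO and 33.7 and 25.6 in ΔATG cells, and on day 5 4.21 and 3.05, 5.76 and 5.71, and 6.22 and 5.35 CPM. The KO difference was -1.35 ± 0.16 on day 2 (3.00e-09) and 0.63 ± 0.21 on day 5 (0.0213), and the joint test over days gave an adjusted p of 1.18e-06. FGFR1 on day 5 read 692 and 633, 1020 and 823, and 838 and 886 CPM, and FGFR2 108 and 89, 189 and 151, and 153 and 177 CPM. Both edited lines were above WT in all libraries. The mean differences were 0.41 ± 0.04 in KO (5.26e-14) and 0.37 ± 0.04 in ΔATG (3.29e-12) for FGFR1, and 0.56 ± 0.04 (1.32e-15) and 0.54 ± 0.04 (2.88e-14) for FGFR2. FGF2, at 98.8 and 98.4 CPM in KO against 82.1 and 74.9 in WT on day 5, was higher by 0.47 ± 0.09 in KO (2.76e-05) and 0.36 ± 0.09 in ΔATG (0.00192). FGFR3 (-0.16) and FGF16 (-0.39) in KO, and FGF1 (0.90), FGF12, FGF13, FGF18, FGF22, ETV4 and ETV5 in ΔATG, were called but lost the call in at least 1 alternative.

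Between the edited lines in BMP4, 10 members were called (13.6% of all genes, 8.67% higher and 4.92% lower), 9 of them higher in ΔATG than in KO, 15 with the replicate block and 6 without ΔATG day 2 library a. Over all genes the block called 6175 between the lines, against 3508 in the main fit. ETV5 was higher in ΔATG than in KO by 0.40 ± 0.10 (0.00211). Markers moved with these differences. On day 5 the 8 lateral mesoderm genes summed to 363 and 405 CPM in WT, 80.7 and 120 in KO and 219 and 183 in ΔATG cells, and the 10 pluripotency genes to 4540 and 4100, 6330 and 5860, and 5840 and 5740 CPM. Over days 1 to 5, 8 of 8 lateral mesoderm genes were lower in KO and 5 of 8 in ΔATG, and 8 of 10 pluripotency genes were higher in each. Primitive streak genes were lower too, 7 of 8 in each line, as were 9 of 10 definitive endoderm genes in KO and 8 of 10 in ΔATG. Of 9 tested amnion or trophoblast genes, 8 were lower and 1 higher in KO, and 4 and 1 in ΔATG. Between the lines, 8 of these 9 were higher in ΔATG than in KO. Fibroblast genes were lower, 4 of 8 in KO and 3 of 8 in ΔATG. The part of these cell states in the FGF differences was not tested.

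**Figure D3:**
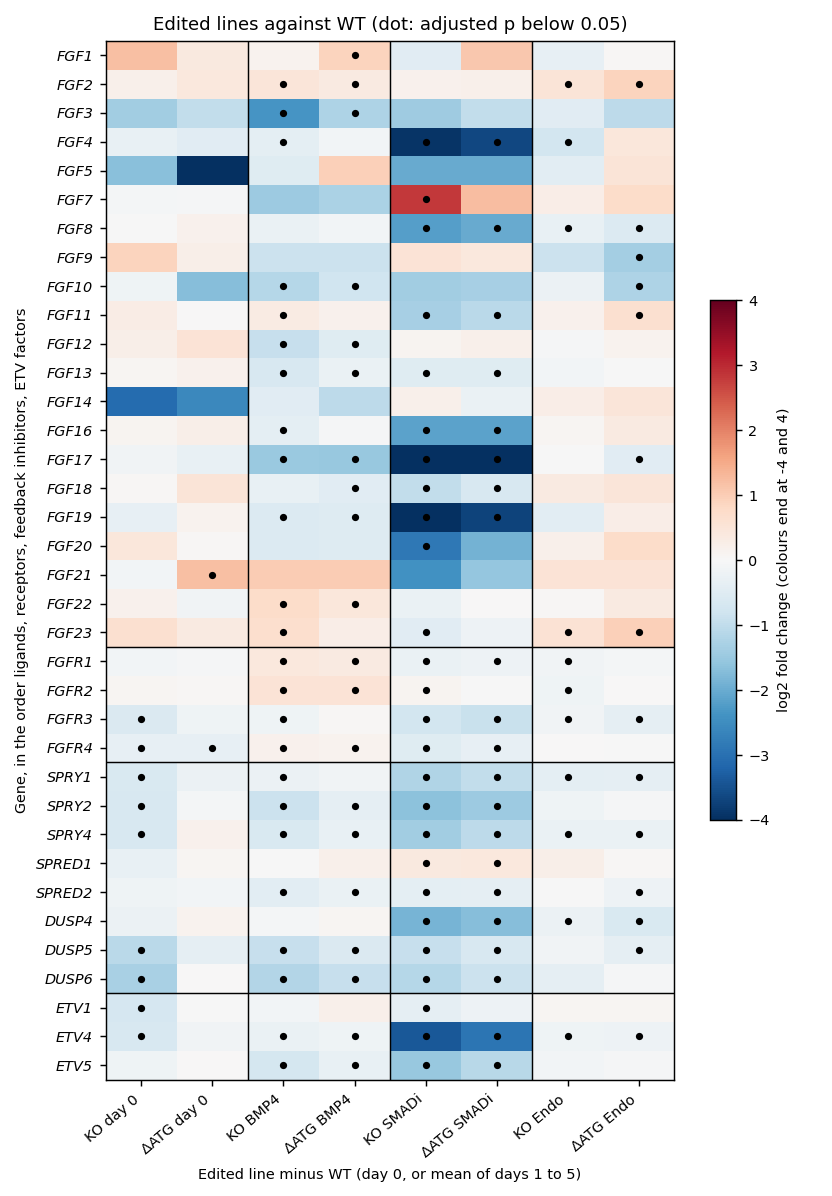
Heat map of the log2 fold changes of the 36 tested members (rows, by role) in KO and ΔATG against WT at day 0 and over days 1 to 5 of BMP4, SMADi and Endo; colour gives the difference, with the scale ending at -4 and 4, and a dot marks an adjusted p under 0.05. Among the marked cells the SMADi columns hold the deepest falls, led by FGF17 at -4.50 and FGF19 at -4.09 in KO.

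In SMADi most of the module was lower in both edited lines. Over days 1 to 5, 26 members were called in KO (3 higher, 23 lower) beside 45.6% of all genes (21.0% and 24.6%), and 21 in ΔATG (1 higher, 20 lower) beside 45.2% (20.9% and 24.3%). The median was -1.06 in KO and -0.89 in ΔATG over the members, and -0.01 over all genes in each. In both lines 7 of 8 inhibitors were lower and SPRED1 alone was higher, by 0.39 ± 0.11 in KO (0.00238) and 0.43 ± 0.11 in ΔATG (0.000899). Of the 3 ETV factors, 3 were lower in KO and 2 in ΔATG, and 10 and 8 of the 21 ligands were lower.

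ETV4 left the WT course step by step. On SMADi day 1 it read 311 and 309 CPM in WT, 231 and 241 in KO and 239 and 246 in ΔATG cells. On day 3 it read 36.7 and 42.3, 1.49 and 2.16, and 2.55 and 2.56 CPM, and on day 4 44.1 and 42.3, 0.524 and 0.567, and 0.849 and 1.05 CPM. The groups did not overlap on any of these days, and the gap widened from day 1 to day 4. The KO difference was -0.39 on day 1 (0.0232), -4.43 ± 0.17 on day 3 and -6.30 ± 0.21 on day 4 (7.51e-32), and the ΔATG difference was -5.50 ± 0.19 on day 4. Over days 1 to 5 they averaged -3.39 ± 0.08 (2.27e-40) and -2.91 ± 0.07 (5.45e-38), and the joint tests over days gave 1.69e-29 and 3.23e-29.

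The ligands FGF17, FGF19, FGF4 and FGF8 were all lower. FGF17 on SMADi day 3 read 17.2 and 16 CPM in WT, 1.21 and 1.02 in KO and 1.48 and 1.36 in ΔATG cells, and averaged -4.50 ± 0.20 (2.80e-27) and -4.12 ± 0.19 (1.94e-26) over the days. FGF19 on the same day read 16.5 and 20.2, 1.21 and 0.868, and 1.11 and 1.42 CPM, and averaged -4.09 ± 0.11 (3.27e-37) and -3.69 ± 0.10 (5.37e-36). FGF4 read 4.18 and 3.7 CPM in WT on day 3, and on days 1 to 5 no KO library exceeded 0.289 CPM and no ΔATG library 0.417 CPM, with means of -3.92 ± 0.27 (1.82e-18) and -3.65 ± 0.26 (8.37e-18). For FGF8 the gap was deepest on day 5, when WT read 22.4 and 24 CPM, KO 1.52 and 1.46 and ΔATG 2.42 and 2.29. Its differences that day were -3.96 ± 0.17 in KO (4.40e-27) and -3.31 ± 0.16 in ΔATG.

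The remaining ligands moved in both directions. FGF9, which signals through FGFR3 among others, read 2.67 and 1.68 CPM in WT, 3.65 and 4.56 in KO and 9.22 and 10.8 in ΔATG cells on SMADi day 5, higher by 0.93 ± 0.35 (0.0345) and 2.22 ± 0.32 (7.29e-08). FGF7 was called higher in KO over the days (2.82 ± 0.93, 0.00894). It read 0.0196 and 0.0185 CPM in WT, 0.541 and 1.03 in KO and 1.39 and 0.659 in ΔATG cells on day 5, and the call was lost without any 1 of 4 KO libraries (1.93 to 2.60, adjusted p from 0.103 to 1). Among the others FGF16 averaged -2.15 in both lines and FGF18 -0.98 in KO and -0.65 in ΔATG. FGF11 read 25.8 and 16.6 CPM in WT, 4.08 and 3.87 in KO and 4.23 and 4.55 in ΔATG cells on day 5, and averaged -1.32 and -1.09. The low FGF20 (-2.86 ± 1.07 in KO, 0.0232) lost its call without either WT day 5 library, at -2.84 (0.0917) and -2.85 (0.0909). FGF2 was not called on any SMADi day in either line.

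DUSP6 reversed its sign within SMADi. On day 2 it read 4.02 and 2.99 CPM in WT, 8.5 and 7.04 in KO and 15.9 and 17.8 in ΔATG cells, and on day 4 6.95 and 6.15, 0.805 and 0.832, and 0.679 and 0.418 CPM. Both edited lines were thus above WT on day 2 and below it on day 4, with no overlap. The differences were 1.15 ± 0.40 in KO (0.0419) and 2.26 ± 0.37 in ΔATG (4.53e-06) on day 2, and -3.00 ± 0.54 (7.33e-06) and -3.59 ± 0.58 on day 4. On day 1, at 241 and 262, 301 and 293, and 258 and 262 CPM, KO did not differ past the threshold (0.24, 0.748). SPRY4 was likewise higher in ΔATG on day 2, by 0.95, and lower in KO on day 5, at -3.13 ± 0.38, at 0.523 and 0.513 CPM against 4.42 and 4.67. DUSP4 on day 4 read 75.9 and 80.2, 4.68 and 4.09, and 5.62 and 5.72 CPM, a difference of -4.15 ± 0.17 in KO (4.79e-28). SPRY2 on day 4 read 28.9 and 30.1, 4.06 and 4.82, and 4.94 and 5.14 CPM, and averaged -1.63 ± 0.09 in KO (1.50e-23).

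The receptors split by day 5 of SMADi. FGFR1 read 839 and 778 CPM in WT, 327 and 349 in KO and 411 and 427 in ΔATG cells, and FGFR3 119 and 124, 50.1 and 53.2, and 27.1 and 34.8 CPM. FGFR4 read 50.4 and 46, 15.9 and 19.1, and 24.2 and 25.1 CPM. FGFR2 instead read 176 and 181 CPM in WT, 360 and 374 in KO and 274 and 309 in ΔATG cells. On that day FGFR1 differed by -1.26 ± 0.08 in KO (1.66e-19) and -0.95 ± 0.08 in ΔATG, FGFR3 by -1.23 ± 0.12 and -1.97 ± 0.12 (8.73e-20), and FGFR2 by 1.04 ± 0.10 (5.99e-13) and 0.71 ± 0.10 (4.74e-08). FGFR1 had been 0.26 higher in KO on day 2, and FGFR2 stood at -0.49 on day 3, so their means over the days (-0.27 and 0.11 in KO) join values of both signs.

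Between the edited lines in SMADi, 2 members were called (1.07% of all genes, 0.593% higher), both higher in ΔATG: ETV4 by 0.48 ± 0.11 (0.00818) and FGFR4 by 0.17 ± 0.04 (0.0165). The ETV4 call was lost without ΔATG day 5 library b (0.45, 0.0582) or day 4 library b (0.45, 0.0603), and that of FGFR4 without KO day 5 library a (0.15, 0.0778). On SMADi day 5 the 10 neuroectoderm genes summed to 1290 and 1300 CPM in WT, 2230 and 2240 in KO and 2100 and 2380 in ΔATG cells, and the pluripotency genes to 5620 and 5580, 4070 and 4030, and 4400 and 4360 CPM. Over the days 7 neuroectoderm genes were higher and 2 lower in KO, and 6 and 2 in ΔATG. Within that list SIX3, a forebrain factor, read 375 and 358 CPM in WT and 1.59 and 1.89 in KO, and HES5, a Notch target, 0.314 and 0.462 and 135 and 148. Primitive streak genes were lower over the days, 4 of 8 in each line. Of the 10 definitive endoderm genes, 2 were lower and 1 higher over the days in each line, and 7 were not called. On day 3 alone their sums were 50.8 and 50.9 CPM in WT, 11.4 and 12.3 in KO and 12.3 and 13.7 in ΔATG cells. Fibroblast genes were higher, 3 of 8 in each line, with day 2 sums of 548 and 506 CPM in WT, 1250 and 1280 in KO and 1140 and 1120 in ΔATG cells. What part these markers have in the FGF differences was not tested.

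In Endo the module stayed closer to WT. Over days 1 to 5, 11 members were called in KO (2 higher, 9 lower) beside 14.8% of all genes (6.76% and 8.04%), and 14 in ΔATG (3 higher, 11 lower) beside 33.8% (16.6% and 17.2%). The medians were -0.12 and -0.01 over the members and 0.00 and 0.02 over all genes. The KO count was 7 without KO day 2 library a or without the filter on low counts, and 17 when only the libraries compared were fitted. Over all genes, 3111 were called without the filter and 5041 with only the libraries compared, against 3820 in the main fit. FGF17 was not called in KO, on the mean (-0.03 ± 0.06, 0.88) or on any day. In ΔATG cells it read 34.8 and 46.3 CPM on day 1, against 147 and 114 in WT and 98.5 and 120 in KO, and 2560 and 2600 on day 3, against 3120 and 3110 and 3270 and 3230. The ΔATG difference was -1.68 ± 0.15 on day 1 (1.06e-12), 0.37 on day 2 (0.0811) and -0.45 ± 0.06 over the days (6.34e-08), and the joint test over days gave 1.04e-09. ΔATG differed from KO by -0.42 ± 0.06 (1.16e-06).

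FGF8 and DUSP4 were lower in both lines in Endo. FGF8 on day 2 read 27.6 and 27.8 CPM in WT, 17.5 and 14.6 in KO and 10.5 and 10.5 in ΔATG cells, and differed by -0.79 ± 0.13 (9.75e-06) and -1.40 ± 0.13 (1.42e-12). DUSP4 on day 5 read 1160 and 1070, 776 and 814, and 574 and 499 CPM, and differed by -0.49 ± 0.13 (0.0131) and -1.05 ± 0.13 (7.14e-09). DUSP6 was not called on any Endo day in either line. FGF2 was higher in both, by 0.53 ± 0.13 in KO (0.00229) and 0.89 ± 0.12 in ΔATG (4.84e-08), and on day 5 read 2.54 and 3.21, 3.92 and 5.36, and 6.25 and 7.12 CPM. FGFR3 on day 1 read 46.7 and 42.9, 30.6 and 30, and 15.3 and 15.4 CPM, with a ΔATG difference of -1.55 ± 0.13 (7.10e-14). By day 5 it read 95.9 and 98.8, 107 and 108, and 114 and 120 CPM.

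FGF4 and FGF10 differed between the edited lines in Endo. FGF4 on day 2 read 13.1 and 14.4 CPM in WT, 7.44 and 7.31 in KO and 20.4 and 20.3 in ΔATG cells, so that WT lay between them, with differences of -0.89 ± 0.18 in KO (0.000536) and 0.57 in ΔATG (0.0122). Averaged over the days ΔATG exceeded KO by 1.18 ± 0.27 (0.000896), among 11 members called between the lines (5 higher, 6 lower), beside 18.4% of all genes (8.71% and 9.65%). FGF10 on day 2 read 6.35 and 7.93 CPM in WT, 5.06 and 6.01 in KO and 2.49 and 2.08 in ΔATG cells. Over the days it averaged -1.23 ± 0.16 in ΔATG (3.96e-09), and ΔATG differed from KO by -0.99 ± 0.16 (2.50e-06). FGF11, one of the intracellular FGFs, was higher in ΔATG by 0.65 ± 0.08 (7.87e-10). The mean KO call of FGF4 (-0.74 ± 0.26, 0.0497) was lost without the filter on low counts (-0.73, 0.0586), and the ΔATG call of FGF9 (-1.37 ± 0.54, 0.0422) likewise (0.0523). The KO calls of ETV4 (-0.16), FGFR3 (-0.15) and FGF23 (0.57) were lost without single libraries, FGF23 without WT day 2 library b (0.47, 0.0804). The 10 definitive endoderm genes summed on day 5 to 15200 and 14700 CPM in WT, 14500 and 14500 in KO and 10300 and 9550 in ΔATG cells. Over the days 3 of 10 were called in KO (2 higher, 1 lower) and 7 of 10 in ΔATG (3 higher, 4 lower). Primitive streak genes were lower, 4 of 8 in KO and 6 of 8 in ΔATG, as were 5 and 6 of 8 lateral mesoderm genes. On day 2 the streak genes summed to 3050 and 3110 CPM in WT, 2180 and 2290 in KO and 2240 and 2120 in ΔATG cells. The part of these markers in the differences of either line was not tested.

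The KO difference depended on the protocol by the joint test in 27 members (47.4% of all genes) and the ΔATG difference in 25 (48.1%). For KO these included FGF17 (4.37e-26), ETV4 (5.49e-35), FGF8 (6.44e-16), FGF4 (3.85e-15), DUSP6 (0.000539) and all 4 receptors, of which FGFR1 gave 3.70e-17, FGFR2 8.44e-14, FGFR3 3.02e-10 and FGFR4 1.40e-14. SPRED1 was called in neither line, and FGF2 in ΔATG (0.000601) but not in KO (0.0552). Within BMP4 the KO difference varied among the days in 18 members (10.4% of all genes) and the ΔATG difference in 7 (2.27%). With the replicate block these were 22 and 13 members, beside 5406 and 1465 of all genes. When only the libraries compared were fitted they were 6 and 1 members, beside 415 and 21 genes. In the main fit the counts within SMADi were 22 (32.7%) and 24 (29.5%), and within Endo 3 (2.95%) and 14 (16.2%). The 3 in Endo KO cells were FGF8, FGF16 and FGFR3, and the count was 1 when any 1 of 7 WT or KO libraries of days 1, 2 and 5 was left out.

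The other genes of the pathway were counted from lists of 35 tested genes of the cascade (coreceptors, adaptors, RAS, RAF, MEK and ERK genes) and 28 other genes known to respond to ERK. In KO cells on BMP4, 15 of the 28 responsive genes were called, all lower (28.7% of all genes were called, 15.4% lower), and 10 in ΔATG, again all lower (17.0% and 8.78%). FLRT2, a membrane protein that binds FGF receptors, differed by -1.20 ± 0.10 in KO (2.14e-15), and FOSL1, an AP-1 factor, by -1.19 ± 0.08 in ΔATG (6.56e-17). In SMADi 19 of 28 were lower and 4 higher in each line, beside 24.6% of all genes lower and 21.0% higher in KO and 24.3% and 20.9% in ΔATG. TFAP2C, a factor of ectoderm and germ cells, differed by -2.53 ± 0.08 in KO (2.48e-33) and PHLDA1 by -1.24 ± 0.09 (4.25e-18), while FLRT3 was higher by 1.59 ± 0.16 (1.81e-12). In Endo 6 were lower and 3 higher in KO (8.04% and 6.76% of all genes), and 13 and 2 in ΔATG (17.2% and 16.6%). CCND1, the cyclin that carries growth signals to the cell cycle, was at -0.82 ± 0.08 (3.25e-12) and -1.10 ± 0.08 (3.05e-17).

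The cascade itself moved in both directions. In KO cells 7 of its 35 tested genes were higher and 11 lower in BMP4 (13.3% and 15.4% of all genes), 9 and 10 in SMADi (21.0% and 24.6%) and 5 and 4 in Endo (6.76% and 8.04%). In ΔATG cells these counts were 4 and 5 in BMP4 (8.19% and 8.78%), 11 and 8 in SMADi (20.9% and 24.3%) and 6 and 10 in Endo (16.6% and 17.2%). FGFBP3, which carries FGFs in the matrix, differed by -1.06 ± 0.06 in KO cells in SMADi (5.04e-22) and by 0.43 in BMP4. GPC3, a heparan sulfate proteoglycan, was higher in ΔATG in Endo by 1.03 ± 0.06 (1.07e-21). At day 0, 3 cascade genes (1 higher, 2 lower) and 6 responsive genes (3 and 3) were called in KO, beside 4.89% of all genes, among the latter IL17RD, a membrane inhibitor of FGF signalling, at -0.86 ± 0.20 (0.00562).

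In the overexpression arm some libraries went against their labels or stood apart. The lncPRESS1 gene read 29 and 30.2 CPM in early vector libraries, 32.3 and 53.8 in those labelled lncPRESS1, 144 and 156 in those labelled lncPRESS1DATG and 185 and 133 in those labelled lncSIRP. At the late stage the libraries labelled lncPRESS1 read 153 and 151 CPM, those labelled lncPRESS1DATG 154 and 156, those labelled lncSIRP 34.9 and 35.9 and the vector 32.9 and 32.6. At the middle stage the libraries labelled lncPRESS1 and lncSIRP had pluripotency sums of 2600 to 2660 CPM against 7660 and 8180 in the vector, and lateral mesoderm sums of 969 to 1130 against 8.76 and 7.9. Their fibroblast and amnion or trophoblast lists were also high, at 5730 to 7640 CPM against 649 and 659 and at 744 to 908 against 15.5 and 14.4. Means over the 3 stages for these constructs are therefore also given for the early and late stages only, an alternative added after the data were seen. Both kinds of mean still join early and late libraries whose lncPRESS1 readings differ under the same label. Whether those stages hold the same construct was not tested.

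Libraries labelled lncPRESS1DATG, whose middle pluripotency sums were 7450 and 7010 CPM and lateral mesoderm sums 3.59 and 4.41, had less FGF17 and FGF8 than the vector at every stage. FGF17 read 7.23 and 7.45, 12.1 and 9.85, and 9.73 and 6.96 CPM in the vector at the early, middle and late stage. In the libraries labelled lncPRESS1DATG it read 1.54 and 1.24, 0.611 and 0.659, and 0.367 and 0.358 CPM. FGF8 read 18.8 and 17.8, 22.2 and 18.1, and 24.5 and 30.3 CPM in the vector and 4.51 and 3.73, 1.14 and 2.32, and 3.43 and 4.01 in the libraries labelled lncPRESS1DATG. For both genes the groups were apart at all 3 stages. Over the stages FGF17 differed by -3.67 ± 0.25 (1.12e-08), FGF8 by -2.85 ± 0.25 (2.17e-07) and FGF4 by -1.34 ± 0.16 (6.41e-06). In all, 16 of 33 members were called (3 higher, 13 lower) beside 25.8% of all genes (11.3% and 14.5%), with medians of -0.32 and -0.01.

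The inhibitors SPRY1 and SPRY2 were also lower in the libraries labelled lncPRESS1DATG. SPRY2 read 77.6 and 79.9, 69.9 and 71.8, and 68.9 and 68.9 CPM in the vector and 25.3 and 33.7, 49.8 and 51.6, and 41 and 41.8 in those libraries. It differed by -0.88 ± 0.06 (7.31e-09), SPRY1 by -0.78 ± 0.05 (6.68e-09) and DUSP5 by -0.91 ± 0.09 (9.51e-07). DUSP6 read 165 and 171, 138 and 165, and 129 and 118 CPM in the vector and 75 and 68.8, 258 and 185, and 79.9 and 86 in the libraries labelled lncPRESS1DATG, below the vector early and late and above it at the middle stage. The early difference was called, at -1.23 ± 0.27 (0.00346), the middle (0.54, 0.278) and late (-0.57, 0.146) ones were not, and the differences varied among the stages (0.013). FGF2 was higher over the stages by 0.69 ± 0.16 (0.0031), and late it read 124 and 129 CPM against 65.7 and 67.9. By stage, 19 members were called early (26.3% of all genes), 7 at the middle stage (7.36%) and 11 late (21.1%). Early library a of this label carries the word Redo in its deposited description, and what was redone is not given in the sources used here. Over the stages 9 of 10 definitive endoderm and 5 of 8 primitive streak genes were lower in these libraries, and none of either list was higher. At the middle stage the endoderm genes summed to 8.9 and 8.12 CPM against 65.8 and 57.7 in the vector, and the streak genes to 7.75 and 7.9 against 42.8 and 34.2. The part of these markers was not tested.

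At the middle stage the libraries labelled lncPRESS1 and lncSIRP had less FGF4 and ETV4 than the vector and more DUSP4 and FGFR3. There 28 members were called for each (58.1% and 60.4% of all genes). FGF4 read 13 and 12.5 CPM in the vector, 0.229 and 0.652 in the libraries labelled lncPRESS1 and 0.343 and 0.422 in those labelled lncSIRP, with differences of -4.97 ± 0.47 (8.34e-08) and -5.05 ± 0.47 (5.03e-08). DUSP4 read 11.7 and 11.2, 75.4 and 77.4, and 83 and 85.2 CPM, higher by 2.74 ± 0.14 (1.43e-11) and 2.88 ± 0.14 (6.50e-12). FGFR3 read 24.9 and 29.2, 103 and 83.3, and 108 and 103 CPM, and ETV4 207 and 220, 84.4 and 89.2, and 97.9 and 97.6 CPM. FGF21 was at 0 in both middle libraries labelled lncPRESS1. The part of the marker sums above in these differences was not tested.

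At the late stage the same constructs went the other way for FGF4 and FGF8. FGF8 read 24.5 and 30.3 CPM in the vector, 68.8 and 49.2 in the libraries labelled lncPRESS1 and 74.5 and 72 in those labelled lncSIRP, higher by 1.11 ± 0.33 (0.0236) and 1.42 ± 0.33 (0.00709). FGF4 read 16.5 and 18.1, 42.2 and 27, and 46.9 and 36.1 CPM, higher by 1.00 ± 0.23 (0.00644) and 1.26 ± 0.23 (0.00191). DUSP6 was lower, at 53.9 and 55.1 and at 45.8 and 46.1 CPM against 129 and 118, by -1.18 ± 0.28 (0.00674) and -1.43 ± 0.28 (0.00266). Without vector late library a the lncPRESS1 calls of FGF4 (0.94, 0.0831) and DUSP6 (-1.11, 0.0645) and the lncSIRP call of FGF8 (1.27, 0.1) were lost. At this stage 10 members were called in the libraries labelled lncPRESS1 (22.6% of all genes) and 11 in those labelled lncSIRP (21.4%). The primitive streak genes then summed to 143 and 75.9 CPM in the libraries labelled lncPRESS1 and 176 and 128 in those labelled lncSIRP, against 44 and 49 in the vector. The definitive endoderm genes summed to 101 and 76.8 and to 136 and 126 CPM, against 55.5 and 50.4. The part of these markers was not tested.

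Early, 1 member was called in the libraries labelled lncPRESS1 (0.412% of all genes), SPRY1 at -0.46 ± 0.09 (0.0321). Their libraries a and b lay apart, as in DUSP6 at 173 and 63.8 CPM and FGF8 at 9.75 and 34.4. In those labelled lncSIRP 10 were called (10.8%), all lower, with FGF17 at 1.67 and 1.39 CPM (-2.27 ± 0.37, 0.00221) and DUSP6 at 59.4 and 54.9 (-1.56 ± 0.28, 0.0035), and without library b both calls were lost (-2.14, 0.0538 and -1.51, 0.0655). Over the 3 stages 22 of 33 members were called for lncPRESS1 (8 higher, 14 lower), beside 45.8% of all genes (21.4% and 24.4%), and 20 for lncSIRP (4 higher, 16 lower), beside 50.1% (23.8% and 26.4%). With the early and late stages only, 8 were called for lncPRESS1, beside 3597 of all 23300 genes: of the 22, 3 kept call and direction, 17 lost the call and 2 were called in the other direction. For lncSIRP 14 were called, beside 6286 genes: of the 20, 6 kept call and direction, 10 lost the call and 4 turned. For both labels these counts join early and late libraries that differ in their lncPRESS1 readings. The mean fall of FGF4 for lncPRESS1 (-1.22 ± 0.22) became 0.65, and the mean rise of DUSP4 (0.93 ± 0.09) became 0.03. The construct differences varied among the stages in 23 members for lncPRESS1 (48.2%), 12 for lncPRESS1DATG (16.4%) and 28 for lncSIRP (48.1%). The 12 became 6 without vector early library b, and 7 without vector early a, vector late a or the early library a labelled lncPRESS1DATG.

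**Figure D4:**
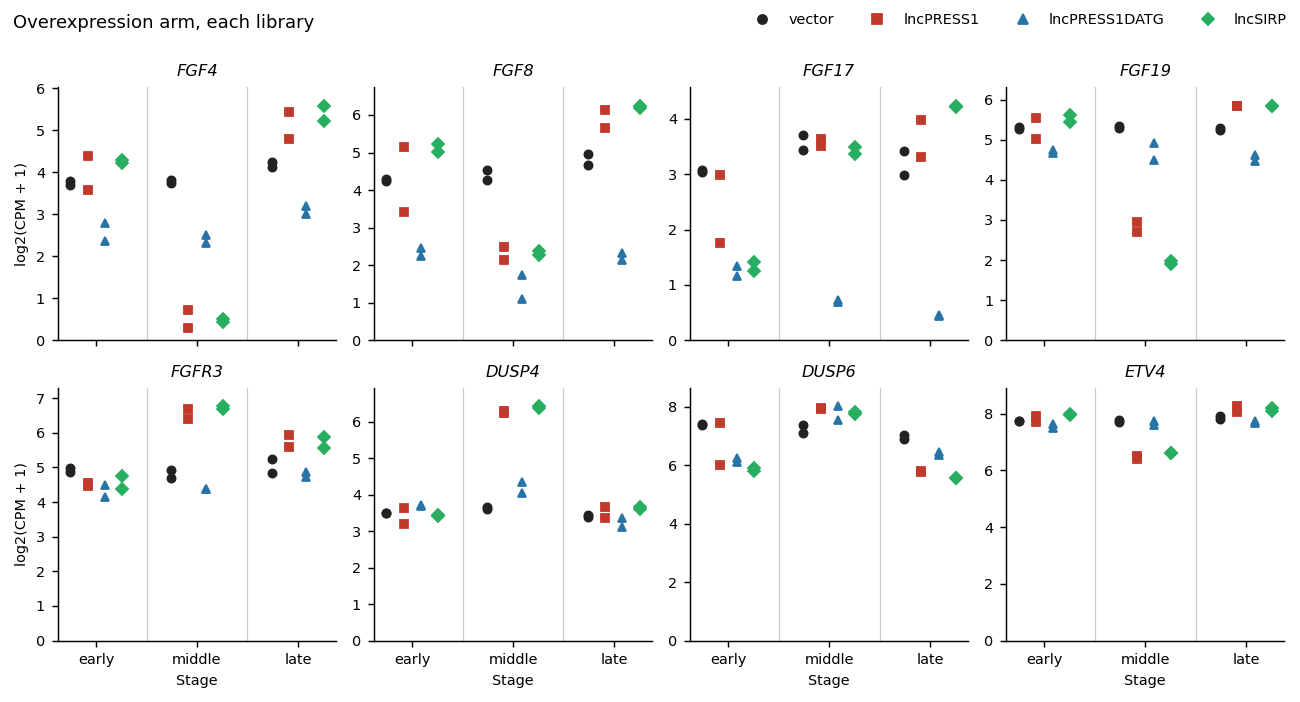
Levels of FGF4, FGF8, FGF17, FGF19, FGFR3, DUSP4, DUSP6 and ETV4 as log2(CPM + 1) at the early, middle and late stage of the overexpression arm; points are libraries, coloured by the construct on the label. FGF17 in the libraries labelled lncPRESS1DATG, at 0.358 to 1.54 CPM, lies below the vector at each stage, and the middle libraries labelled lncPRESS1 and lncSIRP lie apart for FGF4 and DUSP4.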

How the data were processed

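RNA was measured in 120 libraries of H1 cells, polyadenylated RNA in a stranded library kit per the labels' protocols. The authors deposited 1 table of estimated counts per gene (length-scaled, so not always whole), with GRCh38 as the genome build per the submitters' processing notes, and the aligner and quantifier not given in the sources used here. Estimated counts were rounded, genes low in all groups were removed with filterByExpr, and libraries were scaled by TMM (factors 0.8575 to 1.114 and 0.8748 to 1.137 in the 2 arms). Each arm was fitted apart in edgeR 4.0.16 (R 4.3.3) with 1 mean per group, and contrasts were tested by the two-sided quasi-likelihood test, with Benjamini-Hochberg adjustment over all genes and calls at an adjusted p under 0.05. The residual degrees of freedom were 48 and 12. Standard errors are the log2 fold change over the square root of F. CPM values use the TMM-scaled totals.

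Any member could be named; full values by library were given for FGF17, ETV4, DUSP6, FGF2, FGF4, FGF8, the 4 receptors and up to 3 called members with the highest rise and 3 with the deepest fall per comparison, and pathway genes by up to 3 called genes of the largest change in each direction whose mean log2 CPM was 1 or more. The members, lists and tests were chosen with earlier results of these data known. Positions are those of GENCODE 29 (GRCh38). FGF1, FGF2, FGF5, FGF7, FGF10 to FGF14, FGF23, FGFR1, SPRY4, SPRED2, DUSP6, ETV4 and ETV5 overlap other genes, so their counts depend on how reads were assigned. Letters a and b were checked as pairs by the correlation of deviations from the group means: it was over 0.1 in 3 of 3 pairs at day 0 (0.360 to 0.621) and 15 of 15 in BMP4 (0.147 to 0.586), so block fits are given there, and not in all pairs elsewhere. The alternatives were DESeq2's size factors, the DESeq2 1.42.0 test, no filter, the replicate block, only the libraries compared, and leaving out each library. Figures used a pseudocount of 1 CPM (matplotlib 3.10.9).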

Additional observations from a re-analysis of the deposited data

Results flagged for a closer look

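Joint tests over conditions (edgeR's quasi-likelihood test with Benjamini-Hochberg adjustment) marked members whose difference from WT was not the same in all 3 protocols: 27 of 36 for KO (47.4% of all genes) and 25 for ΔATG (48.1%). FGF17 and ETV4 were among both, with their deepest differences in SMADi. Differences that varied from day to day within a protocol were found in BMP4 for 18 members in KO (10.4% of all genes) and 7 in ΔATG (2.27%), in SMADi for 22 (32.7%) and 24 (29.5%), and in Endo for 3 (2.95%) and 14 (16.2%). Among these, DUSP6 in SMADi was above WT on day 2 and below it on day 4 in both edited lines, and FGF4 in BMP4 was below WT on day 2 and above it on day 5 in KO. In the overexpression arm the construct difference varied among the stages for 23 of 33 members in the libraries labelled lncPRESS1 (48.2% of all genes), 12 in those labelled lncPRESS1DATG (16.4%) and 28 in those labelled lncSIRP (48.1%). In the middle libraries labelled lncPRESS1 and lncSIRP the pluripotency genes summed to 2600 to 2660 CPM, against 7660 and 8180 in the vector, and their part in these counts was not tested.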

How the results depend on the processing

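Counts of called members moved by more than 1.5 times in these cases. Brackets give the calls over all genes, first in that setting and then in the main fit. Fitting only the libraries compared gave 0 at day 0 for KO (3, 1263), ΔATG (2, 1420) and ΔATG against KO (3, 1050). It gave 5 for ΔATG against KO in BMP4 (1730, 3508), 6 in SMADi (619, 275) and 17 for KO in Endo (5041, 3820). For differences among days it gave 6 for KO (415, 2684) and 1 for ΔATG (21, 587) in BMP4. In Endo it gave 7 for KO (1060, 762) and 22 for ΔATG (6455, 4175) among days. The replicate block gave 5 for ΔATG (2804, 1420) and 11 for ΔATG against KO (2661, 1050) at day 0, and 4 for the latter in SMADi (398, 275). Among days it gave 13 for ΔATG in BMP4 (1465, 587) and 7 for KO in Endo (1763, 762). Without the filter, 7 were called for KO in Endo (3111, 3820) and 1 among its days (561, 762). The DESeq2 test called 5 for ΔATG against KO in SMADi (439, 275). With the early and late stages only, 8 were called for lncPRESS1 (3597, 10681). Elsewhere the block changed no count of calls by more than 1.5 times.

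Leaving out 1 library gave 0 to 13 for KO, 0 to 5 for ΔATG and 0 to 14 for ΔATG against KO at day 0, 6 to 12 for ΔATG against KO in BMP4, 1 to 2 in SMADi, 7 to 11 for KO in Endo, 1 to 4 among its days, and 6 to 13 for lncPRESS1DATG among stages. The lowest of these came without KO library b for KO, without WT library a for ΔATG and without vector early library b for the stages. At day 0 the number of calls over all genes moved widely as well. The cause of these moves was not tested.

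Signs turned without ΔATG library a at day 0 for DUSP5 against KO (-0.04, and at most 1.57 without another library) and DUSP6 against WT (-1.14, and 0.62 without library b), and without WT day 0 library b for FGF21 on SMADi day 2 against day 0 (0.84, and -2.25 without library a). With the early and late stages only, signs turned in the libraries labelled lncPRESS1 for ETV4 (0.19), FGF10 (-0.23), FGF16 (0.13), FGF19 (0.30), FGF4 (0.65), SPRED2 (-0.18) and SPRY1 (-0.12), and in those labelled lncSIRP for ETV4 (0.27), FGF16 (0.00), FGF19 (0.41), FGF4 (0.91), FGF8 (1.15) and SPRED2 (-0.21). Over single genes and comparisons, 1368 values kept direction and side of the threshold with DESeq2's size factors and 20 did not, and with 1 library left out 7987 did, 39 gained a call, 875 lost it and 3 turned. The DESeq2 test was not run for joint tests of the differentiation arm, nor leaving out libraries for those among the 3 protocols. With 2 libraries per group, differences near the threshold rest on the shared spread, and members under 1 CPM such as FGF3 and FGF5 on few counts.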
